A study of Homo sapiens with 24 samples.

Results

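SW480 and SW620 are colorectal adenocarcinoma cell lines that were established from a primary tumour and from a lymph node metastasis of the same patient, and the comparison described here is that of their control cells. Those are the 6 SW480 and 6 SW620 RNA-seq libraries labelled vector, 12 of the 24 libraries of the study, chosen by the labels for line and genotype and by no measured value. The other 12 libraries came from the same lines carrying Tet2CD, a lentiviral construct of the catalytic domain of the DNA demethylase TET2, and were used only where stated. The cells of all 12 vector libraries carried an empty lentivirus and had been through selection in puromycin at 5 µg/ml. Each line had 3 groups of 2 libraries, treated for 24 h with DMSO as the solvent control, with 4 ng/ml TGFB1, the transforming growth factor cytokine, or with RepSox at 1 µM, which blocks the type I receptor of TGF-beta. These are the conditions of the sample labels, whereas the study's supplement describes a mixture of TGF-beta ligands, each at a lower dose, and a longer treatment, and which of them applies to these libraries is not known. Each stage of the tumour was represented by a single line, so stage and any other difference between these 2 cultures cannot be told apart. The study used the treatments to examine DNA demethylation in the epithelial to mesenchymal transition. It also compared SW480 with SW620 by RNA-seq. Genes of the WNT and beta-catenin pathway were reported as enriched in SW480, and those of fatty acid metabolism in SW620. Which libraries that comparison used is not known.

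Most colorectal cancers carry a WNT pathway that is switched on inside the cell. WNT ligands bind Frizzled receptors and LRP5 or LRP6, which spares beta-catenin (CTNNB1) from a destruction complex built on APC and AXIN, and beta-catenin then works with TCF and LEF factors at target genes. The epithelium that gives rise to these tumours is defined by hepatocyte nuclear factors, FOXA factors and CDX2, and held together by E-cadherin (CDH1). Tumour cells also have to make membrane lipid, and the enzymes of cholesterol synthesis are controlled together by the factor SREBF2.

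Total expected counts of the 12 libraries ran from 2911056 to 4410520. Principal component analysis separated the lines on its leading axis, with 78.9% of the variance, against 7.33% on the next axis. Levels are in CPM, counts scaled to the same library total, and Pearson correlations of log2 CPM were 0.933 to 0.985 within a line and 0.725 to 0.768 between the lines. Ribosomal protein genes took 6.18% to 7.94% of the counts in SW480 and 8.04% to 9.92% in SW620, and the mean GC content behind a count was 50.3% to 51.1% in SW480 and 49.5% to 50.3% in SW620. Both measures moved with the line, and their part in the differences was not tested. Both lines carried the epithelial markers EPCAM, KRT8, KRT18 and KRT19 (12 colon epithelial markers summed to 7224 to 12845 CPM in SW480 and 8125 to 13072 in SW620), with CDX1 at 3 counts or fewer over the 12 libraries. Markers of other cells were low, although not equal. The 8 blood cell markers summed to 8.80 to 12 CPM in SW480 and 45.7 to 67.2 in SW620 (PTPRC and HBB at 3 counts or fewer). The 8 fibroblast markers summed to 26.0 to 30.9 and 51.6 to 71.0 (FAP at 3 counts or fewer), and the 7 endothelial markers to 4.18 to 7.80 and 4.65 to 12.3 (KDR and TEK at 3 counts or fewer). In bulk RNA, fewer cells of a type and less RNA per cell cannot be told apart.

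The lines differed over most of the transcriptome. Of 13139 genes tested, 8902 (67.8%) passed an adjusted p of 0.05 in edgeR's quasi-likelihood test with treatment as a blocking factor, 4504 (34.3%) with the higher level in SW620 and 4398 (33.5%) with the higher level in SW480. A difference of at least 2-fold was also required for the counts of gene groups below, and 3631 genes (27.6%) met it, 1685 (12.8%) higher in SW620 and 1946 (14.8%) higher in SW480. In 5373 genes (40.9%) the 6 libraries of a line did not overlap those of the other. At the far end, 481 genes differed at least 16-fold, 300 of them higher in SW480 and 181 higher in SW620. The median log2 fold change of all genes tested was 0.02, and log2 fold changes below are SW620 minus SW480. Levels are given in CPM as the lowest, median and highest of a line's 6 libraries.

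The genes with the largest excess in SW480 included keratins of stratified epithelia and a growth factor receptor. KRT5, the type II keratin of basal epithelial cells, stood at 1940, 6425 and 8205 CPM in SW480 and at 1.18, 2.03 and 14.5 in SW620 (log2 fold change -10.30, SE 0.37). Its SW480 level was itself uneven, at 1940 and 2215 CPM in the TGFB1 libraries and 6206 to 8205 in the others. KRT13, a type I keratin of such epithelia, stood at 147, 241 and 270 CPM against 0, 0.268 and 0.503 (-9.66, SE 0.21). Keratins as a group were split. Of 12 tested members of a keratin list, 3 were at least 2-fold higher in SW480, KRT13 among them. Another 3 were at least 2-fold higher in SW620, among them KRT7 and KRT17. EGFR, the receptor of epidermal growth factor, stood at 114, 186 and 302 CPM against 0, 0.354 and 1.06 (-8.87, SE 0.25). GLI3, a transcription factor of the Hedgehog pathway, had medians of 359 and 0.983 CPM. RUNX2, a factor best known from bone formation, had medians of 135 and 0.290 CPM. The adhesion molecules NCAM1 (132 and 0.283 CPM) and SDK1 (194 and 0.147), the T cell kinase ZAP70 (151 and 0.254), the membrane traffic protein MAL2 (100.2 and 0.176) and the potassium channel KCNJ5 (244 and 0.848) were also in this set, as was ANKRD1, the muscle ankyrin repeat protein, described below. These genes were chosen by fold change among genes past the threshold whose lines did not overlap, so the lack of overlap follows from the choice. The largest adjusted p was that of KRT5, 8.4e-13.

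The genes with the largest excess in SW620 were of other kinds. LCP1, the actin-bundling plastin of blood cells, stood at 0, 0.898 and 2.87 CPM in SW480 and at 547, 630 and 857 in SW620 (log2 fold change 9.04, SE 0.27). ROBO1, a receptor of the SLIT guidance cues, stood at 1.55, 2.68 and 5.2 CPM against 259, 436 and 460 (7.01, SE 0.21). GPX2, the glutathione peroxidase of the gut epithelium, stood at 0.777, 1.93 and 6.15 CPM against 221, 247 and 291 (6.69, SE 0.24). The calcium-binding protein S100P had medians of 0.535 and 77.5 CPM. The junction protein CGNL1 had medians of 0.291 and 117 CPM, and the actin-binding proteins POF1B and CNN3 had medians of 0.415 and 93.5 and of 0.692 and 167. RASSF6 (0.415 and 167), the Notch glycosyltransferase MFNG (0.995 and 86.9) and AL033397.1 (0.861 and 56.0) completed the set with PEG10 and MME, described below. These 12 were chosen in the same way, and their largest adjusted p was that of AL033397.1, 1.67e-12. The part of blood cells in the level of LCP1 was not tested. Of the 8 blood cell markers, PTPRC was at 3 counts or fewer over all 12 libraries. The 3 that could be tested, CD4 and CD68 among them, were higher in SW620.

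**Figure D1:**
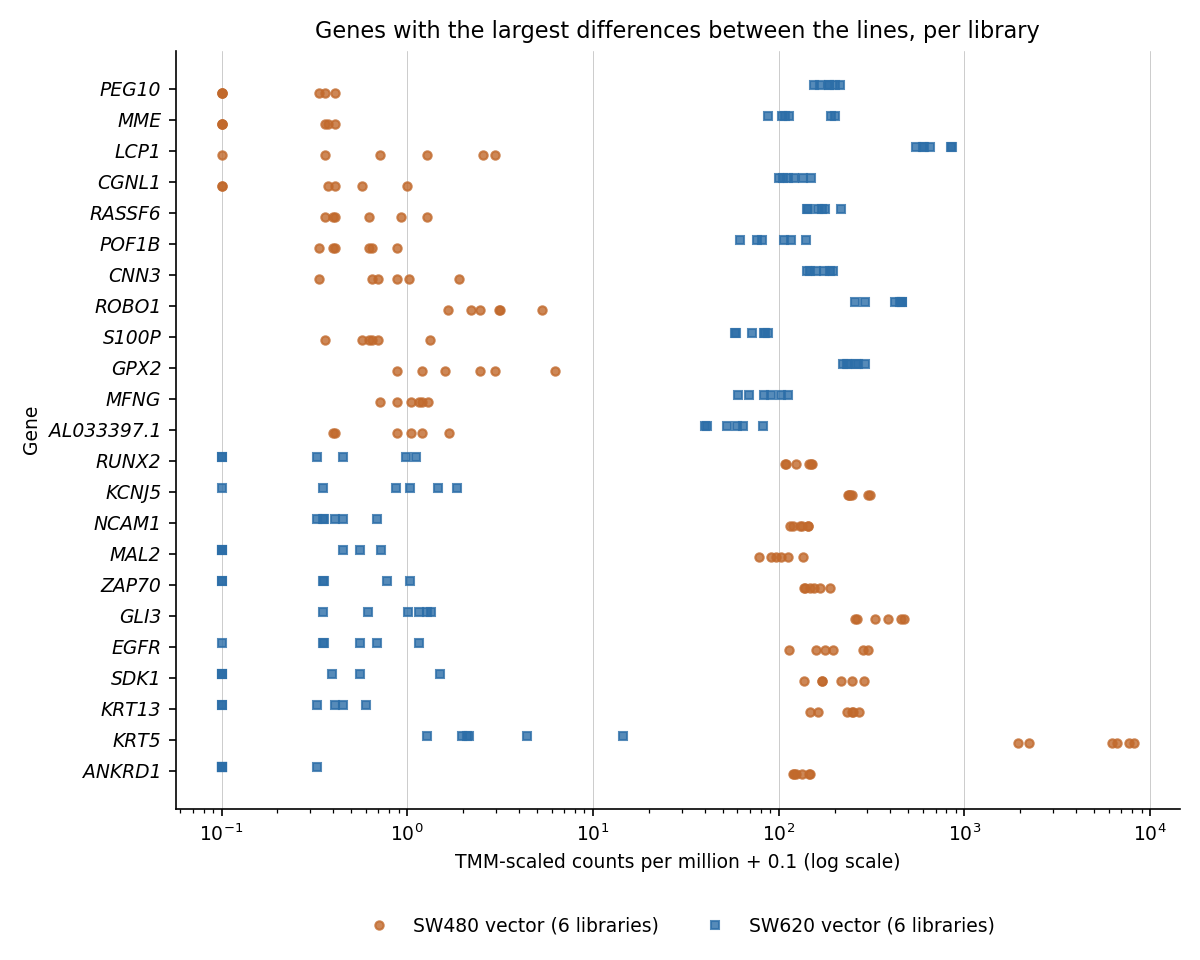
Level of each gene named above for its large excess in SW620 (upper rows) or in SW480 (lower rows). Each symbol is 1 library, on a log axis of CPM plus 0.1. KRT5 reaches 8205 CPM in SW480 and is at most 14.5 in SW620. The genes were chosen among those in which circles and squares do not overlap.

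Part of the difference was close to all or none. With at least 5 CPM in all 6 libraries of a line and at most 3 counts summed over the 6 of the other, 67 genes were detected in SW480 alone and 38 in SW620 alone. A sum of 3 counts corresponds to 0.135 CPM over the SW480 libraries and 0.138 over the SW620 libraries. ANKRD1 was at 120, 128 and 148 CPM in SW480 and had 1 count in SW620, a ratio of 2868 with a 95% counting interval of 515 to 113294. WNT5A, the ligand best known for WNT signalling without beta-catenin, was at 68.5, 84.3 and 145 CPM against 1 count (ratio 2144, interval 385 to 84685). LHX1, a homeobox factor, was at 44.1, 51.7 and 58.3 CPM against 1 count (ratio 1111, interval 199 to 43878). PASD1 (median 110 CPM), ADAMTS8 (63.1), IGFBP7 (59.7), SCARA3 (59.3), MRVI1 (57.3) and AC013268.1 (44.0) were likewise at 3 counts or fewer in SW620. LIMS4 had a median of 80.1 CPM in SW480 and 0 counts in SW620, at least 568-fold higher against the floor of 3 counts over the group, but near-identical copies make its counts uncertain.

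In the other direction SMOC2, a secreted protein of intestinal stem cells, was at 76.2, 92.0 and 165 CPM in SW620 and had 1 count in SW480 (ratio 2452, interval 440 to 96851). MME, the membrane metalloendopeptidase CD10, was at 87.5, 111 and 200 CPM against 3 counts (ratio 990, interval 339 to 4801). TFF3, the trefoil peptide of goblet cells, was at 49.7, 62.5 and 91.4 CPM against 3 counts (ratio 482, interval 165 to 2336). F5, coagulation factor V, had a median of 50.3 CPM against 0 counts, at least 331-fold higher. LINC01559 (median 116 CPM), TOX3 (96.1), PHYHIPL (54.3), PCDH19 (51.7) and WIPF1 (49.9) completed the 10 highest with PEG10.

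PEG10 and SGCE are imprinted neighbours on chromosome 7 that face away from each other. In GENCODE 29 on GRCh38, SGCE lies at chr7:94524204-94656572 on the minus strand and PEG10 at chr7:94656325-94669695 on the plus strand. PEG10 was at 156, 186 and 214 CPM in SW620 and had 3 counts in SW480 (ratio 1364, interval 467 to 6613). SGCE was at 19.7, 21.2 and 29.3 CPM and had 2 counts in SW480 (ratio 252, interval 69.8 to 2081). Both were thus detected in SW620 alone. Whether counting used strand is not given, so reads in the short stretch where the genes overlap cannot be told apart. Of a list of 20 imprinted genes, 12 were tested. Besides this pair, H19 was higher in SW620 (3.42, SE 0.42), and IGF2 (-1.23, SE 0.19), PLAGL1 (-1.05, SE 0.16) and GRB10 (-1.20, SE 0.15) were higher in SW480.

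The promoters of these genes were read because DNA methylation, the subject of the study, acts at CpG dinucleotides. The 250 bases before the first start listed for each gene by RefSeq (GRCh38.p14) were used. The median number of CpG was 12.5 for the 40 genes of SW480 alone that had an entry and 6 for the 24 of SW620 alone. It was 21 for the 9922 tested genes with an entry and 11 for all 27305 entries. The quartiles were 4 and 26, 2 and 21, 14 and 28, and 3 and 23, respectively. The promoters of 4 genes described above are shown, each 5′ to 3′ on the strand of its gene and with every CG in capitals. They lie at chr10:90921088-90921337 (ANKRD1, minus strand, 4 CpG), chr3:55487307-55487556 (WNT5A, minus strand, 14 CpG), chr3:155079422-155079671 (MME, plus strand, 15 CpG) and chr6:168440934-168441183 (SMOC2, plus strand, 24 CpG).
ANKRD1: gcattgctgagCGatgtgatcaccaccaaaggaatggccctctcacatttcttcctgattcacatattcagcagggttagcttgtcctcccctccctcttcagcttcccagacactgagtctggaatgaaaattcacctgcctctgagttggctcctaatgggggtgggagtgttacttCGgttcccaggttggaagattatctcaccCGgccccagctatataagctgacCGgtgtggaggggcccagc
WNT5A: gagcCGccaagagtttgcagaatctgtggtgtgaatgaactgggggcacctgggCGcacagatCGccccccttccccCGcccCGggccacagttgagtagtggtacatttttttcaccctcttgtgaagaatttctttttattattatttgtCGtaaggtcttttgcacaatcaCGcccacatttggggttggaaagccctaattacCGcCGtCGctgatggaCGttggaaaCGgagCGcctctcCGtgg
MME: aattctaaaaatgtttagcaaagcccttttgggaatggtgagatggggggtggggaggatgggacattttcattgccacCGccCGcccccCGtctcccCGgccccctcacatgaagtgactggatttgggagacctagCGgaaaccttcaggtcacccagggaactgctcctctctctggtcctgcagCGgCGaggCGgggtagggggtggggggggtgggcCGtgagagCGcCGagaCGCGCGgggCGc
SMOC2: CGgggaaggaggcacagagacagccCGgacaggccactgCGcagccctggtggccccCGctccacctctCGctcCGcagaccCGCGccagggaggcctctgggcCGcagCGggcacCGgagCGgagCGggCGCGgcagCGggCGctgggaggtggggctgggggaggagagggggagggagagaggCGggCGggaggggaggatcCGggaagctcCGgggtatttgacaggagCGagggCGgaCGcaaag
ANKRD1 and WNT5A were detected in SW480 alone and MME and SMOC2 in SW620 alone, and these 4 were chosen for their levels in the cells and not for their CpG. MME and SMOC2, with 15 and 24 CpG, lay above the median of 6 of their set. ANKRD1, with 4, lay below the median of 12.5 of its set and WNT5A, with 14, above it. No methylation was measured in these libraries.

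WNT ligands and receptors were among the most divergent gene groups. Of 24 tested, 15 were at least 2-fold higher in SW480 and 5 at least 2-fold higher in SW620, with a median log2 fold change of -1.72 against 0.02 for all genes tested. Besides WNT5A, the ligand WNT6 was at 64.2, 77.5 and 92.0 CPM in SW480 and at 0, 2.57 and 4.03 in SW620 (log2 fold change -5.2, SE 0.31). WNT10A had medians of 36.0 and 3.64 CPM (-2.72, SE 0.31). Among receptors, FZD7 was at 30.4, 35.8 and 41.8 CPM against 0.255, 0.331 and 0.755 (-6.16, SE 0.22), and ROR2, a receptor of WNT5A, had a median of 26.4 CPM against 4 counts over the 6 libraries (-6.92, SE 0.34). FZD10 went the other way, at 0.259, 1.14 and 1.89 CPM in SW480 and 58.5, 65.1 and 76.0 in SW620 (5.89, SE 0.23). The co-receptors were higher in SW620 as well, LRP6 with medians of 60.6 and 235 CPM (2.06, SE 0.14) and LRP5 with 150 and 368 (1.19, SE 0.10). In none of these named genes did the lines overlap. Over the whole list this held for 18 of the 24 tested, against 40.9% of all genes tested.

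Within the cell, 8 of 23 components of the beta-catenin machinery were at least 2-fold higher in SW480 and 2 in SW620 (median -0.45). CTNNB1 was at 853, 1290 and 1497 CPM in SW480 and at 417, 450 and 480 in SW620 (-1.38, SE 0.11, adjusted p = 7.64e-09). The DNA-binding partner LEF1 was at 60.6, 74.6 and 108 CPM against 0.255, 0.751 and 1.59 (-6.55, SE 0.17), and the corepressor TLE4 had medians of 29.0 and 0.147 CPM (-5.90, SE 0.34). TCF7 was also higher in SW480 (-1.95, SE 0.14). Its relative TCF7L2 was higher in SW620, with medians of 24.2 and 60.6 CPM (1.41, SE 0.14), and so was CTNNBIP1, an inhibitor that keeps beta-catenin from TCF factors (14.7 and 71.5 CPM; 2.15, SE 0.14). APC did not pass the test (-0.15, SE 0.13, adjusted p = 0.314), nor did AXIN1 (0.18, SE 0.14, adjusted p = 0.262).

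Target genes of WNT signalling split between the lines, with 8 of 22 at least 2-fold higher in SW620 and 6 in SW480 and a median of 0.04. APCDD1, a membrane inhibitor of WNT, was at 1188, 1720 and 2264 CPM in SW480 and at 49.3, 51.8 and 88.5 in SW620 (-4.82, SE 0.10). CD44, the hyaluronan receptor, was at 217, 237 and 304 CPM against 5.90, 10.6 and 13.4 (-4.62, SE 0.16), and AXIN2 at 631, 921 and 1139 against 220, 312 and 348 (-1.58, SE 0.16). NKD1, another feedback inhibitor, was at 483, 557 and 795 CPM against 2509, 3385 and 4027 (2.46, SE 0.14). SOX4 had medians of 29.8 and 311 CPM (3.24, SE 0.12) and PROX1 58.9 and 399 (2.77, SE 0.16). Feedback inhibitors were thus found on both sides. LGR5, the receptor that marks intestinal stem cells, was at 8.82, 27.1 and 36.3 CPM in SW620 and had 2 counts in SW480 (ratio 258, interval 71.5 to 2132). The lowest SW620 values were those of the RepSox libraries, 10.5 and 8.82 CPM. Of 14 tested stem cell markers, 4 were at least 2-fold higher in SW620 (SMOC2, PROM1, LGR5 and EPHB2) and 3 in SW480 (CD44, AXIN2 and MSI1). PROM1, which encodes CD133, was at 29.4, 56.6 and 70 CPM in SW620 and had 5 counts in SW480.

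Factors of gut identity were mostly higher in SW620. Of 13 tested, 8 were at least 2-fold higher there and 3 in SW480, with a median of 2.31. HNF4A was at 27.0, 28.4 and 36.2 CPM in SW480 and 98.8, 157 and 208 in SW620 (2.31, SE 0.12). Its paralogue HNF4G had 0 counts in SW480 and 7.41, 12.2 and 15.3 CPM in SW620, at least 85.0-fold higher. FOXA2 had medians of 5.97 and 81.5 CPM, and FOXA3 1.82 and 48.3. SOX2, a factor of stem cells and of the foregut, had medians of 1.21 and 53.4 CPM, with its highest SW480 library at 8.03. CDX2, the master factor of the intestine, was the reverse, at 32.9, 67.1 and 78.1 CPM in SW480 and 9.87, 12.9 and 26.3 in SW620 (-1.89, SE 0.18). PDX1 (-3.47, SE 0.33) was also higher in SW480. The brush border protein VIL1 was at 44.0, 48.6 and 64.6 CPM against 321, 329 and 348 (2.68, SE 0.10). All 5 tested genes of a list of 21 for mucins and secretory cells were higher in SW620, among them MUC1 (5.08 and 27.3 CPM) and MUC13 (8.51 and 33.3), but only the 5 that reached the filter on low counts could be counted.

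Counted by adjusted p alone, cholesterol synthesis had the largest share of genes on a single side among lists with over 20 tested genes. At 2-fold the share was larger for WNT ligands and receptors, with 15 of 24 higher in SW480. Of 22 genes, 20 passed the test with the higher level in SW480, 13 of them at least 2-fold, and 1, FDFT1, with the higher level in SW620 (0.61, SE 0.11). The median log2 fold change was -1.12, and it lay between -1.22 and -0.89 in every alternative tried on the vector libraries. In Tet2CD cells it was -1.12, and -0.83 without the 3 SW480 libraries named below for their ribosomal share. CYP51A1, which removes a methyl group from lanosterol, was at 160, 205 and 384 CPM in SW480 and 27.6, 41.3 and 88.2 in SW620 (-2.29, SE 0.13). NSDHL, the sterol dehydrogenase of the next steps, was at 78.2, 86.8 and 96.6 CPM against 17.6, 21.3 and 28.6 (-1.98, SE 0.12). The squalene epoxidase SQLE had medians of 167 and 53.9 CPM (-1.71, SE 0.10). INSIG1, which retains the SREBP complex in the endoplasmic reticulum and is itself a sterol-regulated gene, had medians of 174 and 44.9 CPM (-1.74, SE 0.13). The early enzyme HMGCS1 differed by -0.40 (SE 0.12), and in it the lines overlapped. SREBF2, the regulator, was at 234, 262 and 372 CPM against 224, 260 and 355 (-0.03, SE 0.08, adjusted p = 0.719). For fatty acid synthesis, 10 of 17 tested genes were higher in SW480, 5 of them at least 2-fold, and 3 in SW620, none at least 2-fold (median -0.56). FASN, fatty acid synthase, had medians of 675 and 381 CPM (-1.02, SE 0.16). Of 21 tested genes of fatty acid oxidation and handling, 9 passed the test with the higher level in each line (median -0.15). At least 2-fold, 4 were higher in SW480 and 2 in SW620.

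**Figure D2:**
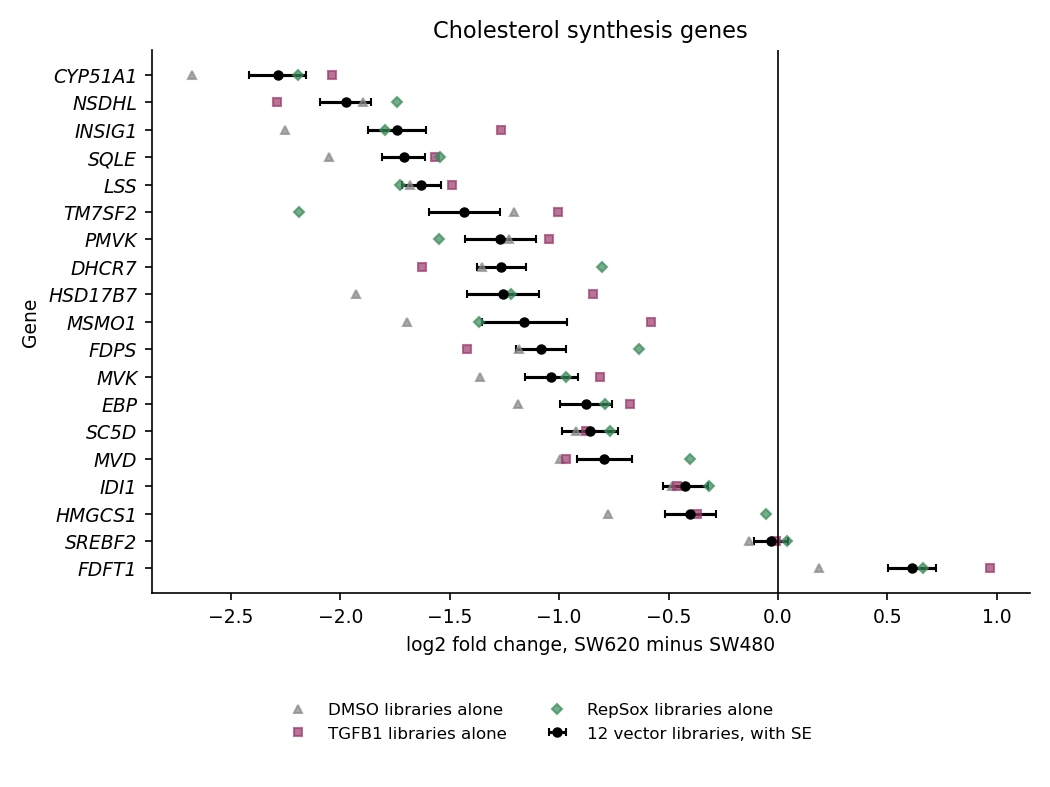
Log2 fold change, SW620 minus SW480, of cholesterol synthesis genes; black points are the fit over 12 vector libraries with its standard error, and coloured symbols are the 4 libraries of each treatment alone. CYP51A1 lies furthest to the left at -2.29, SREBF2 at -0.03, and FDFT1 alone to the right at 0.61.

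Of these 22 genes 17 had a RefSeq promoter entry. The letters CCAAT, the core of the NF-Y site known from sterol-regulated promoters, were found on either strand in the 250 bases before the start of 14 of the 17 (82.4%), against 35.0% of the 9922 tested genes with an entry and 33.0% of all 27305 entries. The letters TCACNCCAC of a sterol regulatory element were found in 1 of the 17 (5.88%), against 0.877% of the tested genes. The promoters of the 4 members with the largest differences among those with an entry follow, each 5′ to 3′ on the strand of its gene and with CCAAT or its reverse complement ATTGG in capitals. They lie at chr7:92134478-92134727 (CYP51A1, minus strand), chrX:152830813-152831062 (NSDHL, plus strand), chr7:155297628-155297877 (INSIG1, plus strand) and chr21:46228775-46229024 (LSS, minus strand).
CYP51A1: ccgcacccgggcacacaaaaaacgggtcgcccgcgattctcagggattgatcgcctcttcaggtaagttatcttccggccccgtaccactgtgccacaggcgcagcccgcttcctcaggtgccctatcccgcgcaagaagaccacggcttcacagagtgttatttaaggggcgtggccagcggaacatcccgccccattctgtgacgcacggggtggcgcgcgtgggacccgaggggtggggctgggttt
NSDHL: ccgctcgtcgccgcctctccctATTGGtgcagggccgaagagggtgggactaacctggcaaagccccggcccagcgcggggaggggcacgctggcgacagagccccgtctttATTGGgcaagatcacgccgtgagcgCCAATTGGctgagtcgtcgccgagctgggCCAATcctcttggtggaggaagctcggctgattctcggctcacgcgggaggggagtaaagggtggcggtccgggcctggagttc
INSIG1: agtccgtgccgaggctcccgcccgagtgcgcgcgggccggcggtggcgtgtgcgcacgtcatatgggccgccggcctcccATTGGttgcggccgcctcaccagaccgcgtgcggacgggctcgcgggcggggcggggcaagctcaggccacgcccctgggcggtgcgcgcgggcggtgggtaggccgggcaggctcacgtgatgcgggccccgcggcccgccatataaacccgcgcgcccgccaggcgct
LSS: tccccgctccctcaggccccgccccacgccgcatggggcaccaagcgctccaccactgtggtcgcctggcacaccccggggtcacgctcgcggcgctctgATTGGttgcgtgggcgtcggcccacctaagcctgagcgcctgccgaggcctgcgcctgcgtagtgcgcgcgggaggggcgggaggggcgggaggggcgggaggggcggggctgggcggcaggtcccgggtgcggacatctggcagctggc
NSDHL held 5 matches, 2 of which overlap as a palindrome, INSIG1 and LSS held 1 each, and CYP51A1, with the largest difference of the list, held 0. A match is a description of these letters and not of binding.

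Adhesion genes did not move as a block. CDH1, the E-cadherin of adherens junctions, was at 64.1, 93.6 and 116 CPM in SW480 and 238, 325 and 477 in SW620 (1.88, SE 0.19, adjusted p = 2.46e-07). CDH3, the P-cadherin gene next to it on chromosome 16, was at 63.4, 101 and 117 CPM against 3.06, 5.66 and 7.41 (-4.15, SE 0.19). Of 13 tested genes of adherens junctions and desmosomes, 1 was at least 2-fold higher in SW620 and 2 in SW480. These counts are close to what the shares of all genes tested, 12.8% and 14.8%, would give. Vimentin (VIM), the intermediate filament of mesenchymal cells, was at 551, 671 and 790 CPM against 649, 743 and 806 (0.11, SE 0.08, adjusted p = 0.218), and EPCAM at 360, 394 and 491 against 335, 374 and 404 (-0.15, SE 0.10, adjusted p = 0.182). The 3 tested factors of the epithelial to mesenchymal transition were higher in SW620, SNAI2 (2.32, SE 0.36), SNAI1 (1.25, SE 0.19) and ZEB1 (1.15, SE 0.18), at medians of at most 20.5 CPM. Among 13 tested mesenchymal genes, FN1 (fibronectin; 192 and 42.8 CPM) and ACTA2 (21.0 and 0.923 CPM) were at least 2-fold higher in SW480, and TPM2 (20.6 and 198 CPM), COL6A2 (1.88 and 9.47 CPM) and TAGLN (3.83 and 10.5 CPM) in SW620. Of all genes tested, 14.8% were at least 2-fold higher in SW480 and 12.8% in SW620, so this list, too, was near the background.

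Growth factor and metastasis genes also pointed in both directions. Of 14 tested genes reported with colorectal metastasis, 8 were at least 2-fold higher in SW480 and 3 in SW620, the line from the metastasis (median -1.39). MACC1, a regulator of MET, was at 2.07, 4.25 and 7.33 CPM in SW480 and 128, 153 and 178 in SW620 (5.11, SE 0.17). MET, the receptor of hepatocyte growth factor, was at 11.7, 17.2 and 21.1 CPM against 156, 192 and 228 (3.52, SE 0.11). VEGFA had medians of 54.4 and 111 CPM (1.26, SE 0.14). CXCR4, a chemokine receptor, was at 70.5, 84.8 and 102 CPM in SW480 and 0, 0.907 and 2.04 in SW620 (-6.28, SE 0.22), and NDRG1, TIAM1, L1CAM and CD44 were on the same side. EGFR was higher in SW480, whereas the receptor ERBB3 (122 and 361 CPM) and the ligands AREG (2.14 and 13.7) and EREG (1.44 and 16.8) were higher in SW620. Of 21 tested G1 regulators, 8 were at least 2-fold higher in SW480 and 4 in SW620. CCND1, cyclin D1, was at 2185, 2344 and 2716 CPM against 114, 206 and 293 (-3.64, SE 0.16), whereas CDK6, a kinase it activates, was at 42.3, 54.2 and 76.9 CPM against 249, 290 and 376 (2.46, SE 0.13). The CDK inhibitor CDKN1A had medians of 114 and 3.48 CPM (-4.57, SE 0.20), while CDKN2A (53.7 and 165; 1.68, SE 0.08) and CDKN2B (7.81 and 53.5; 3.06, SE 0.14) were higher in SW620.

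Targets of TGF-beta signalling were mostly higher in SW480, 9 of 18 at least 2-fold against 3 in SW620 (median -0.95). TGM2, a transglutaminase, was at 1432, 1665 and 1915 against 34.4, 84.0 and 103 (-4.56, SE 0.21). The inhibitor SMAD7 had medians of 32.9 and 3.0 CPM (-3.44, SE 0.21). The receptors differed in opposite directions, TGFBR1 with medians of 73.2 and 18.5 CPM (-1.98, SE 0.12) and TGFBR2 with 51.7 and 221 (2.02, SE 0.08). In the BMP branch 7 of 12 were at least 2-fold higher in SW480 and 2 in SW620, where BMP4 had medians of 41.6 and 177 CPM and its target ID1 6.07 and 50.9, while ID2 (262 and 21.5) and MSX1 (82.6 and 12.3) were higher in SW480.

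Most genes of innate defence and antigen display that passed the test were higher in SW480. Of 21 tested interferon-stimulated genes, 13 passed the test with the higher level in SW480, 7 of them at least 2-fold, and none with the higher level in SW620. IFITM1, a membrane protein that blocks virus entry, was at 40.5, 48.1 and 65.5 CPM against 0, 0 and 2.12 (-7.33, SE 0.39), and IFITM3 at 156, 241 and 272 against 32.4, 41.9 and 50.4 (-2.44, SE 0.09). The median was -0.59, but it was 0.11 in the TGFB1 libraries alone. In antigen presentation, 6 of 16 were at least 2-fold higher in SW480 and 1, HLA-DMA, in SW620 (median -0.82). CD74, the invariant chain of class II molecules, was at 29.5, 38.6 and 42.3 CPM against 0, 0.113 and 1.06 (-6.72, SE 0.33). HLA-B had medians of 151 and 33.3 CPM (-2.01, SE 0.15). Reads of the HLA genes can be shared between near-identical copies, and these values are uncertain.

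Of the genes that act on DNA methylation, TET2 was at 10.5, 19.7 and 24.1 CPM in SW480 and 10.5, 13.1 and 25.2 in SW620 (-0.31, SE 0.18, adjusted p = 0.126). TET1 was at 1.05, 1.73 and 2.15 CPM against 15.2, 25.2 and 42.0 (3.96, SE 0.22), and the thymine DNA glycosylase TDG at 12, 14.4 and 21.2 against 42.8, 47.7 and 59.0 (1.68, SE 0.14). DNMT3B (1.35, SE 0.15) and OGT (1.33, SE 0.13) were the other 2 of the 17 tested genes at least 2-fold higher in SW620, and IDH1 (-1.45, SE 0.10) the 1 higher in SW480. RORA, a nuclear receptor of the circadian clock that the study names, was at 22.7, 36.5 and 70.7 CPM in SW480 and 1.18, 4.06 and 18.4 in SW620 (-2.48, SE 0.27). SPARC, the other named gene, had 58 counts over the SW480 libraries and 0 over the SW620 libraries and did not reach the filter, so it was not tested. Of 15 tested clock genes, 6 were at least 2-fold higher in SW480, among them PER3 (30.4 and 6.14 CPM), DBP (17.1 and 3.75) and NR1D2 (63.3 and 23.2), and 2 in SW620, NPAS2 and PER2. Of 30 tested HOX genes, 11 were at least 2-fold higher in SW480 and 2 in SW620. HOXB8 had medians of 193 and 31.5 CPM and HOXA7 74.2 and 20.6, whereas HOXC13 had 4.19 and 26.9.

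Ribosomal protein genes made a different pattern of many small differences. Of 30 tested, 25 were higher in SW620 and 1, RPL10, in SW480, but only 3 at least 2-fold (median 0.55). RPL37 was at 515, 618 and 693 CPM against 1294, 1589 and 1735 (1.35, SE 0.09). In Tet2CD cells the median of the same genes was -0.20, but this sign rested on the 3 SW480 Tet2CD libraries numbered replicate 1, in which ribosomal protein genes took 10.9% to 16.1% of the counts, against 6.36% to 7.64% in those numbered 2 and 8.48% to 10.0% in SW620 Tet2CD cells. Without these 3 libraries the median was 0.47, on the same side as in vector cells.

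**Figure D3:**
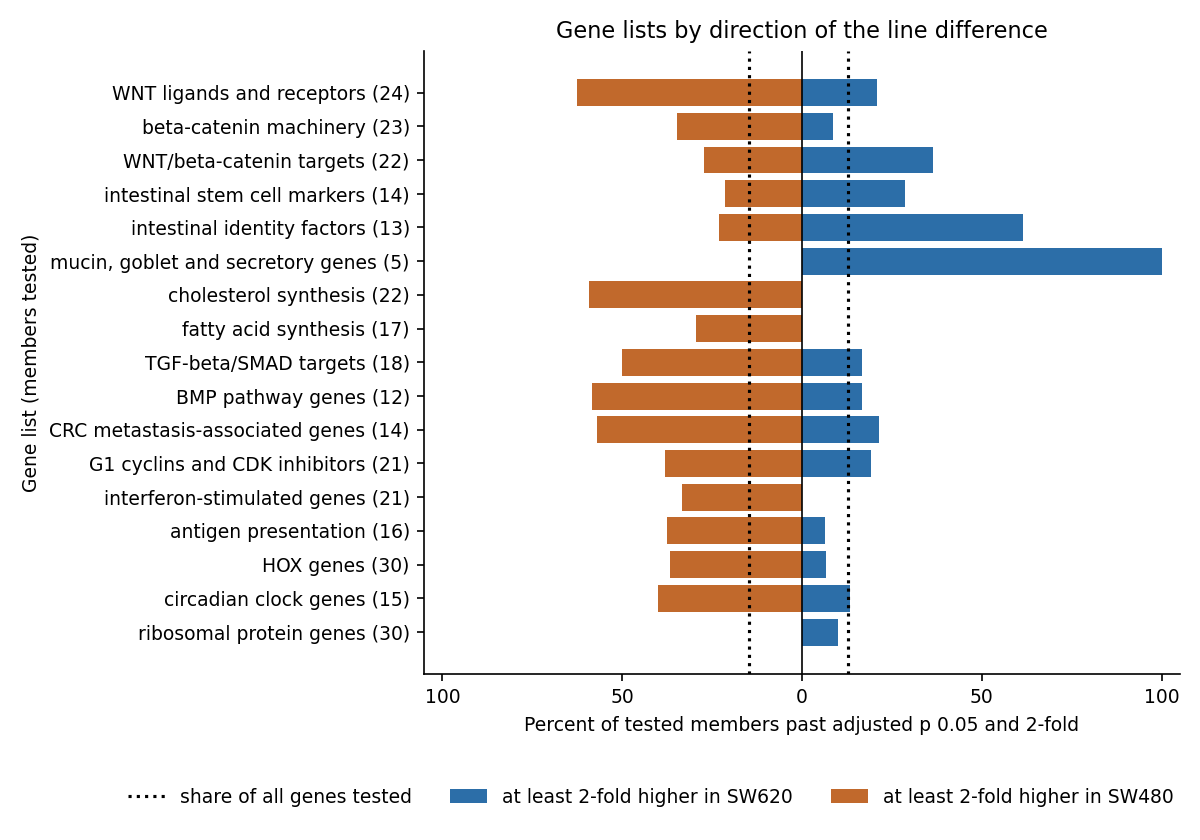
Share of the tested members of 17 gene lists that passed an adjusted p of 0.05 and differed at least 2-fold, to the right where higher in SW620 and to the left where higher in SW480; dotted lines mark the shares of all genes tested, 12.8% and 14.8%. The bars of cholesterol synthesis lie to the left alone (13 of 22), and those of the identity factors mostly to the right (8 of 13).

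Differences also followed position. Genes were grouped by their GENCODE 29 positions on GRCh38 into bins of 10 Mb, and 286 bins held 10 or more tested genes. The median log2 fold change was within 0.5 of zero in 218 bins, above 0.5 in 45 and below -0.5 in 23, with extremes of 1.57 and -1.15. Over whole chromosomes the medians ran from -0.32 (chromosome 7) to 0.39 (chromosome 10). The strongest excess in SW620 lay on chromosome 16 between 60 and 80 Mb, where 128 of 139 genes (92.1%) had a positive value, 104 were at least 2-fold higher in SW620 and 5 in SW480, and the median was 1.42. CDH1 lies there at chr16:68737225-68835548, and its difference of 1.88 stands beside this median. CDH3, at chr16:68636189-68722616, was opposite to it. On the same chromosome, the 294 genes between 0 and 30 Mb had a median of 0.11. On chromosome 7, 134 of 158 genes between 80 and 110 Mb had a negative value, 77 were at least 2-fold higher in SW480 and 11 in SW620, and the median was -0.96, whereas the 194 genes beyond 110 Mb had a median of 0.05. CYP51A1 (-2.29) and MCM7 (-1.36), a replication helicase subunit, lie in that stretch and were on its side. PEG10, SGCE and CDK6 (2.46) lie in it too and were higher in SW620.

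The medians of these stretches were similar under each treatment, 1.40, 1.32 and 1.49 for chromosome 16 and -0.99, -0.95 and -1.01 for chromosome 7 in the DMSO, TGFB1 and RepSox libraries. In Tet2CD cells they were 1.39 and -1.07, and all 68 bins beyond 0.5 had the same sign there. Tet2CD and vector cells share their lines, so this is no independent evidence on the lines' genomes. DNA copy number was not measured, and its part in these medians was not tested.

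**Figure D4:**
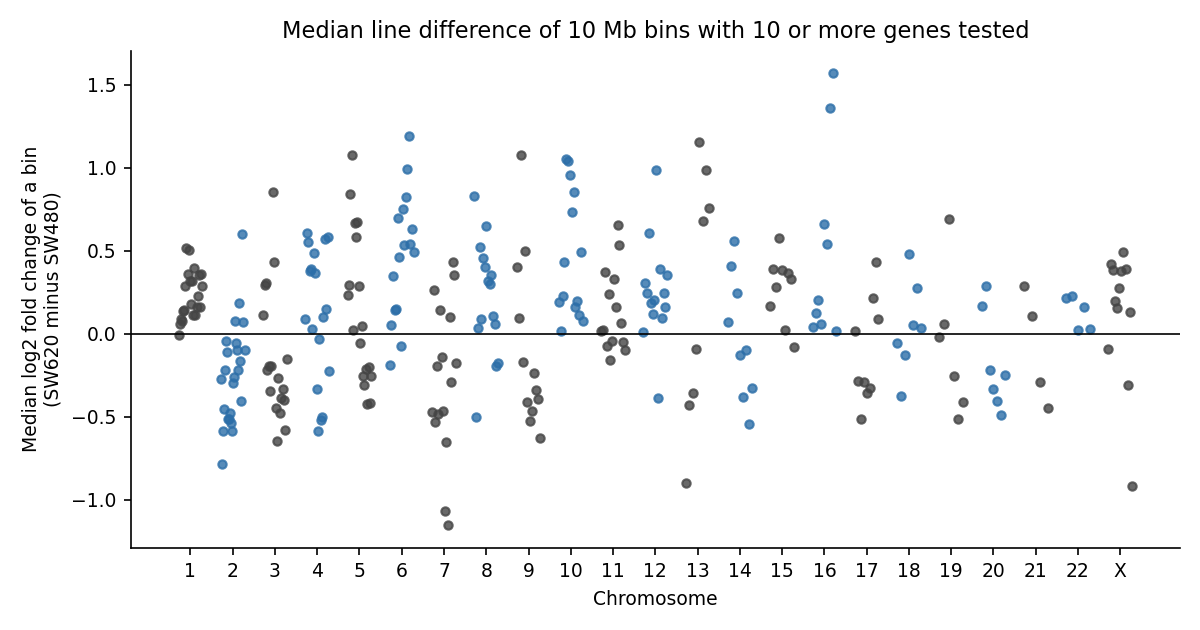
Median log2 fold change, SW620 minus SW480, of each of 286 bins of 10 Mb with 10 or more tested genes, by chromosome and in order along it. The highest bins, at 1.36 and 1.57, are neighbours on chromosome 16, and the lowest, at -1.15, is on chromosome 7.

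The line difference depended on treatment for some genes. The line by treatment interaction passed the test in 2007 of 13139 genes (15.3%). The TGFB1 term alone passed in 948 (7.22%) and the RepSox term alone in 144 (1.1%). Of the 3631 genes that differed at least 2-fold between the lines, 3605 kept their direction in each of the 3 treatments. They were chosen on these same libraries, so this count was largely fixed by the choice. SLC2A3, the neuronal type glucose transporter, was at 2183 and 2202 CPM in SW480 and 41.8 and 51.2 in SW620 with DMSO. With TGFB1 it was at 2611 and 2541 CPM against 567 and 550, so the difference narrowed (interaction 3.35, adjusted p = 1.06e-08). DHRS2, a reductase, was at 51.9 and 50.2 CPM against 1.55 and 2.06 with DMSO and at 14.0 and 17.8 against 12.3 and 10.7 with TGFB1 (4.32, adjusted p = 2.12e-05). Its TGFB1 values lay below the DMSO values in SW480 and above them in SW620. CDH1 showed a wider gap with TGFB1, at 72.2 and 64.1 CPM against 477 and 461, than with DMSO, at 95.6 and 116 against 238 and 245 (1.60, adjusted p = 0.000169). Linker histone HIST1H1C even changed order, from 65.9 and 53.6 CPM against 15.2 and 11.5 with DMSO to 20.7 and 24.4 against 45.3 and 32.9 with TGFB1 (2.95, adjusted p = 8.66e-05). Other leading genes of the interaction were SLC2A1, SERPINA1, NOLC1, FOSL1 and MYH7B, and of the TGFB1 term LBH, MYBBP1A, ACSL1, KIZ and EGLN3.

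With RepSox the largest shift among leading genes was in PADI1, a peptidylarginine deiminase, which was at 111 and 123 CPM in SW480 and 54.9 and 50.4 in SW620, against 107 and 121 and 4.34 and 2.35 with DMSO (interaction 3.94, adjusted p = 3.66e-06). TXNIP, the thioredoxin-interacting protein that restrains glucose uptake, was at 112 and 109 CPM against 408 and 391 with RepSox and at 79.4 and 79.2 against 875 and 946 with DMSO (-1.67, adjusted p = 4.62e-05). EGR1, an immediate early factor, was at 81.8 and 93.4 CPM against 38.8 and 40.2 with RepSox and at 94.4 and 106 against 194 and 208 with DMSO (-2.16, adjusted p = 2.76e-05). CDX2 was at 78.1 and 74.9 CPM against 13.0 and 9.87 with RepSox and at 76.7 and 59.3 against 26.3 and 25.6 with DMSO (-1.33, adjusted p = 0.0292). EMP1, F10, TGM2, NOTUM, HID1 and TNC were also among the leading genes. Both terms share the DMSO libraries and are not independent.

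**Figure D5:**
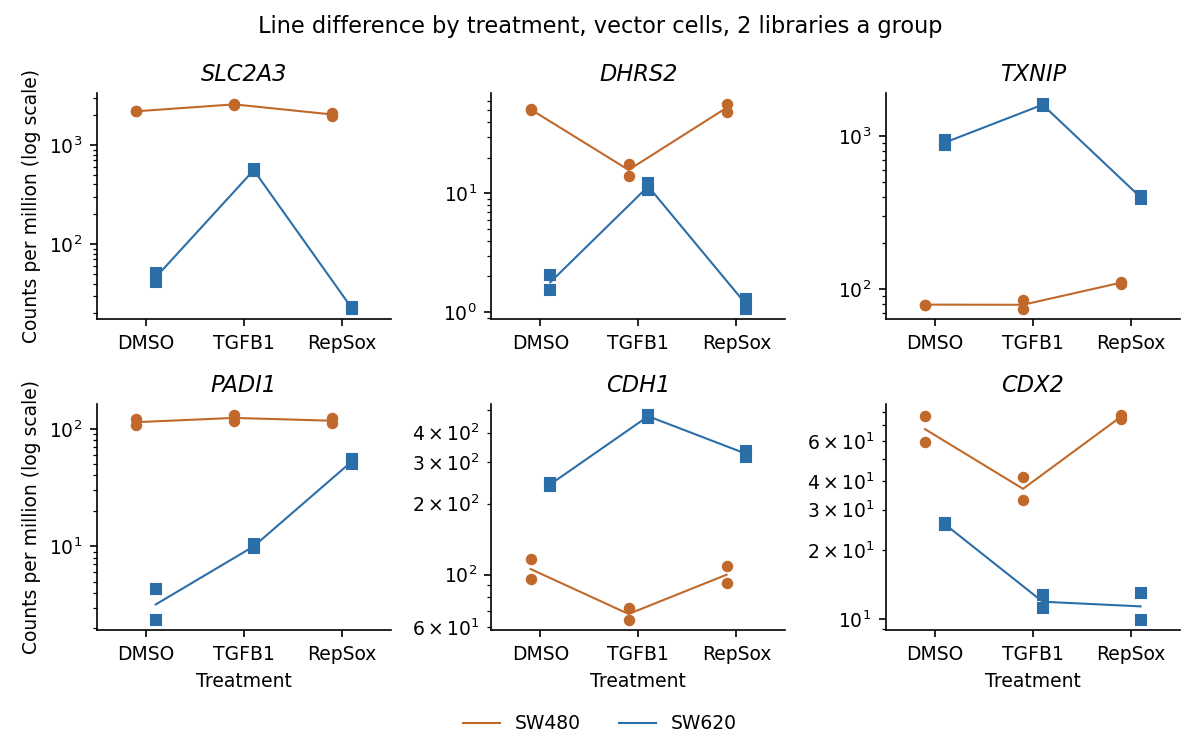
Level of 6 genes in each vector library by treatment, on log axes of CPM; points are libraries, 2 a group, and lines join the geometric means of a line's groups. SLC2A3 in SW620 is at 567 and 550 CPM with TGFB1 against 51.2 or less without it, and DHRS2 in SW620 is at 12.3 and 10.7 CPM with TGFB1 against 2.06 or less without it.

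The same contrast in Tet2CD cells went mostly in the same direction. Of the 13139 genes, 8524 (64.9%) passed the test there, 4117 (31.3%) higher in SW620 and 4407 (33.5%) higher in SW480. Of the 3631 genes at least 2-fold apart in vector cells, 3247 (89.4%) passed there in the same direction and 16 in the opposite one. Without the 3 SW480 Tet2CD libraries with high ribosomal shares these counts were 3365 and 11. The difference between the constructs was tested over all 24 libraries as a line by construct interaction, which passed in 3083 of 15302 genes (20.1%), and in 3095 without those 3 libraries. TPM2 was higher in SW620 in vector cells (3.10) and lower there in Tet2CD cells (-1.0; interaction 4.07, adjusted p = 3.6e-06). Without the 3 libraries the latter value was -0.25 and the interaction 3.30 (adjusted p = 1.52e-11). COL6A2 did the same (2.22 and -2.35; interaction 4.61, adjusted p = 7.31e-07), as did H19 (3.42 and -3.85; interaction 7.31, adjusted p = 5e-06). GDA, guanine deaminase, was higher in SW620 in vector cells (3.27) and was at -0.31 in Tet2CD cells (adjusted p = 0.0594, and -0.42 with 0.00809 without the 3 libraries; interaction 3.53, adjusted p = 1.92e-07). EGFR differed less in Tet2CD cells (-8.87 and -5.62; interaction -3.20, adjusted p = 0.00961). KRT5 did not pass this test (-10.30 and -10.02; interaction -0.45, adjusted p = 0.446). GPER1, TMPRSS3, MXD4, SYK, FBLN1, MVP, KRT23, HYAL1 and GGT7 were the other leading genes of this interaction.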

How the data were processed

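The authors deposited a table for each library with RSEM expected counts, TPM and FPKM per gene. The submitters' notes name Bowtie and RSEM and the build mm10, whereas the identifiers are human; no version or strand setting was found in the sources. The deposited expected counts were rounded to whole numbers. The deposited TPM values were used in 1 alternative, as log2(TPM + 1), and FPKM was not used. Of 33382 identifiers 32777 (98.2%) matched GENCODE 29 (GRCh38), which gave symbols and positions.

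Vector libraries were compared with edgeR 4.0.16 in R 4.3.3 (TMM, filterByExpr with a minimum count of 10, quasi-likelihood test on 8 residual degrees of freedom, Benjamini-Hochberg adjustment). The model held treatment and line, or line by treatment. The Tet2CD libraries were fitted the same way, and line by construct over all 24 libraries with 15302 genes tested. The biological coefficient of variation was 14.8%. On simulated counts for 13139 genes, 100 were changed by 1 on the log2 scale and 100 by 2, evenly in both directions. Of these, 94% and 100% were recovered, with 9 false calls. Far more genes passed the test between the lines, so these rates do not carry over to that contrast. Alternatives used limma 3.58.1 and DESeq2 1.42.0. Intervals and floors cover counting error only.

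Named genes were the 12 largest differences in each direction without overlap and with a mean log2 CPM of at least 3, up to 2 per direction of each list (mean log2 CPM of at least 1), the 10 with the smallest p of each interaction, up to 10 per direction detected in 1 line alone, and TET2, RORA, SPARC, CDH1, CTNNB1, VIM, CDX2, LGR5 and EPCAM, besides other list members described with their list. The comparison and lists were chosen with earlier results of these data known. Whether the 2 libraries of each group were grown as separate cultures is not stated; p-values therefore reflect variation among libraries that is possibly only technical. Doses and times follow the labels, from which the study's supplement differs. Some genes are not reported here, in the text or the plots, although counts over lists include them.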

Additional observations from a re-analysis of the deposited data

Results flagged for a closer look

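Named genes were checked for a library far from the other 5 of its line, by a gap above Dixon's 95% critical value. The 6 libraries of a line span 3 treatments, which this check did not separate. Over 350 tests 10 libraries stood apart, a smaller share than the 1 in 20 that chance gives. In SW480 these were, in CPM, ACTA2 at 13.4 in TGFB1 replicate 2, CD74 at 29.5, ELOVL5 at 131 and HLA-DMA at 3.62 in TGFB1 replicate 1, EFNB2 at 7.07 and PER3 at 18.4 in RepSox replicate 1, and LIMS4 at 55.1 in DMSO replicate 2. In SW620 they were CD44 at 5.90 in TGFB1 replicate 2, LRP6 at 176 in RepSox replicate 2 and RPL10 at 891 in RepSox replicate 1.

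Of 226 named genes, 79 passed the line by treatment test and 86 the line by construct test in edgeR. Over all genes tested the shares were 15.3% and 20.1%. Some genes were named for a small p in these tests, so the 2 counts were partly fixed by the choice. Named genes whose line difference changed by at least 2 on the log2 scale with TGFB1 were ACSL1 (2.10), AREG (2.04), DHRS2 (4.32), EGLN3 (2.55), HIST1H1C (2.95), KRT17 (3.35), LBH (2.34) and SLC2A3 (3.35). With RepSox they were EGR1 (-2.16), EMP1 (2.08), F10 (-2.94) and PADI1 (3.94). Between vector and Tet2CD cells the line difference changed by at least 3 in CNN3 (3.81), COL6A2 (4.61), EGFR (-3.20), FZD10 (3.51), GDA (3.53), S100P (3.84), TFF3 (3.61) and TPM2 (4.07), vector minus Tet2CD.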

How the results depend on the processing

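The count of genes past the threshold, 8902, ran from 7140 to 10849 over the alternatives, 8493 to 8772 with a library left out and 8776 with DESeq2. Without a filter on low counts, 5611 genes were at least 2-fold apart, against 3631. The line by treatment interaction was the least stable count. Against 2007 it was 361 with all 24 libraries in the fit, 876 by limma on log2(TPM + 1), and 913 to 2106 with a library left out. It was 1261 and 1292 without TGFB1 replicates 1 and 2 of SW480, and 1013 and 913 without those of SW620. Beside the 1.1% called for the RepSox term, 1545 genes had an unadjusted p under 0.05. With at least 1 and 10 CPM in place of 5, 60 and 23 genes were detected in SW620 alone and 99 and 39 in SW480 alone.

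Differences between the earlier and later library of a group correlated between groups at -0.163 to 0.323, so some of this deviation was shared. With the earlier and later library numbers as a replicate block, 8848 genes passed for the lines, against 8902 without it. For the line by treatment interaction 2085 passed, against 2007, and for line by construct 3867, against 3083. Of 5424 values of 226 named genes under the alternatives, 5321 kept direction and side of the threshold, 50 lost and 49 gained it, and 4 changed direction. HID1 was -0.80 in RepSox libraries alone (0.74 in all). In TGFB1 libraries alone BUB1B was -0.011 (0.64), HIST1H1C 0.79 (-1.54) and KIZ 0.45 (-0.47). The cause was not tested. The Tet2CD contrast gave 8722 calls without the 3 SW480 libraries numbered replicate 1, chosen after seeing the data. The median of all genes lay between -0.03 and 0.06 in every alternative. At 2911056 to 4410520 counts a library, genes at a few counts were measured poorly.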
